A study of Mus musculus with 15 samples.

Results

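The CD8 T cells of Ifngr1-mutant non-obese diabetic (NOD) mice that bound an IGRP tetramer were compared with CD8+CD44+ T cells of such mice that did not bind it. The libraries were chosen by their labels, 4 of each fraction in mutant mice, and entries were kept where the V gene was a T-cell receptor beta (TRBV) family. This gave 8 of the 15 libraries of the series and 36096 of its 59364 clonotypes, 5220 of them in the tetramer-binding libraries (TET) and 30876 in the other fraction (CD8). Clonotypes are told apart by V family, by J segment and by the nucleotides of the third complementarity-determining region (CDR3).

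All 8 libraries came from mice of strain Ifngr-1-mutant NOD at 125 days of age. Each mouse gave a pool of cells from its spleen and its non-draining lymph nodes, which was stained with 8 nM H-2Kd tetramer carrying the IGRP206–214 peptide and passed over a magnetic column. TET holds the retained cells and CD8 the CD44+ cells that flowed through, so the fractions differ in the separation step as well as in tetramer binding. The labels do not say what the Ifngr1 mutation is, and wild-type (WT) NOD mice enter only a count of shared clonotypes and the last comparison. Same-numbered TET and CD8 libraries were taken as 1 mouse. The series' design text calls each sample a biological replicate without duplicates from a mouse, which can also be read as a different mouse for each library, so every result by mouse rests on the numbers in the labels. Only receptor transcripts were measured, so the labelled cell type could not be checked against other marker genes.

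The beta chain of the T-cell receptor is made by joining 1 V, 1 D and 1 J segment, with bases trimmed and added at the joints. The CDR3 spans these joints and is the part of the chain that most directly meets the bound peptide. IGRP, a glucose-6-phosphatase-related protein of pancreatic beta cells, is a major antigen of CD8 T cells in NOD mice, and Ifngr1 encodes the ligand-binding chain of the interferon-γ receptor. A clonotype found in several mice is called public, and junctions with few added bases are known to recur more often between animals.

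The TET libraries held 17294, 22448, 21966 and 60164 counts in 997, 2199, 1631 and 393 clonotypes. The CD8 libraries held 20909, 29411, 24700 and 32856 counts in 4502, 6804, 9743 and 9827 clonotypes. A clonotype with no count may still have a share of up to 0.01735% in the shallowest of the 8 libraries and 0.00499% in the deepest (3 counts). The tables do not say whether a count is a read or a molecule, so such limits and all intervals here cover counting error only.

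The TET library of mouse 4 stood apart. It was the deepest of the 8 and held the fewest clonotypes, and it shared 18 clonotypes with the TET library of WT mouse 2. Those 18 held 88.9% of its counts and 25.4% of the counts of the WT library, whereas the TET libraries of mutant mice 1, 2 and 3 shared 5, 5 and 6 clonotypes with that library. The TET libraries also shared clonotypes among themselves: 150, 269, 209 and 55 clonotypes of TET 1 to TET 4 were present in at least 1 of the other 3. These were 15.05%, 12.2%, 12.8% and 13.99% of their clonotypes, against 2.31%, 2.32%, 1.91% and 2.05% for CD8 libraries set against the other CD8 libraries, which hold more clonotypes. Between TET 1 and TET 2 alone, 111 clonotypes carried 32.9% and 34.1% of the counts. With every clonotype left out that another library held at 10 times its count or more, 11.4%, 9.93%, 9.66% and 11.8% of TET clonotypes and 1.73% to 2.04% of CD8 clonotypes were shared. The part that mixing between libraries may have in this sharing was not tested. Calls of named classes that were lost without TET 4 or without clonotypes found in more than 1 library are given beside them.

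The sequences below are those of the most abundant clonotypes of the 4 TET libraries and of the receptors that the libraries had in common. Each is a whole CDR3 from the deposited tables, written 5′ to 3′. Capitals mark the bases between the V match and the J match of the deposited alignment, which hold any D bases and added bases, and a sequence with no capitals has none. All use TRBV13, except the last, which uses TRBV4.
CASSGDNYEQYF with TRBJ2-7, in all 4 TET libraries: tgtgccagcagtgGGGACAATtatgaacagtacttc
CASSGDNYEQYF with TRBJ2-7, in TET 1 and TET 2: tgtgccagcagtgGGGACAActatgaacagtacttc
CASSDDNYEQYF with TRBJ2-7, in all 4 TET libraries: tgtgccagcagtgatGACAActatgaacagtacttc
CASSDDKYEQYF with TRBJ2-7, 2nd in TET 3: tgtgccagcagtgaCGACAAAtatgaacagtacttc
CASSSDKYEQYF with TRBJ2-7, 3rd in TET 2: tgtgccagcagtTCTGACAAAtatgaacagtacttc
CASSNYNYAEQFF with TRBJ2-1, 1st in TET 2: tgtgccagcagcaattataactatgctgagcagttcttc
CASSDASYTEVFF with TRBJ1-1, 1st in TET 3: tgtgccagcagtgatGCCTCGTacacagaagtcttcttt
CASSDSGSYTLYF with TRBJ2-4, 1st in TET 4: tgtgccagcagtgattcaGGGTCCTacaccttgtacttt
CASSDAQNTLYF with TRBJ2-4, 2nd in TET 4: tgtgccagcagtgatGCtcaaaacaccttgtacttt
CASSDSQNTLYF with TRBJ2-4, 3rd in TET 4: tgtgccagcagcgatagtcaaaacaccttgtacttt
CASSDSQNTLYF with TRBJ2-4, in all 4 TET libraries: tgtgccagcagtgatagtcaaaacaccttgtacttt
Receptor of 15 residues with TRBJ2-5, 3rd in TET 3: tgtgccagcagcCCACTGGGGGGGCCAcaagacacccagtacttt

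The tetramer-binding libraries were dominated by few clonotypes. The effective number of clonotypes, the number of equally large clonotypes that would give the same Shannon entropy, was taken after thinning each library to 17294 counts. It was 259, 382, 217 and 21.8 in TET 1 to TET 4 and 3237, 4177, 6414 and 5313 in CD8 1 to CD8 4. The ratio of geometric means was 31.5, and every TET library lay below every CD8 library. The 10 largest clonotypes held 33.0%, 35.7%, 40.9% and 72.4% of TET counts against 2.41%, 2.11%, 1.59% and 4.54% of CD8 counts. In TET, 61, 124, 37 and 6 clonotypes were enough to reach 50% of the counts, and in CD8 it took 1024, 1312, 2133 and 1946. Both differences gave an exact permutation p of 0.0286, two-sided, the smallest that 4 against 4 libraries can give (adjusted p over 8 exact tests = 0.0457). The sign-flip test over the 4 mice gave 0.125 for each, the smallest 4 pairs can give. Without TET 4, the mean log2 difference in effective number was -4.06, against -4.98 with it.

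**Figure D1:**
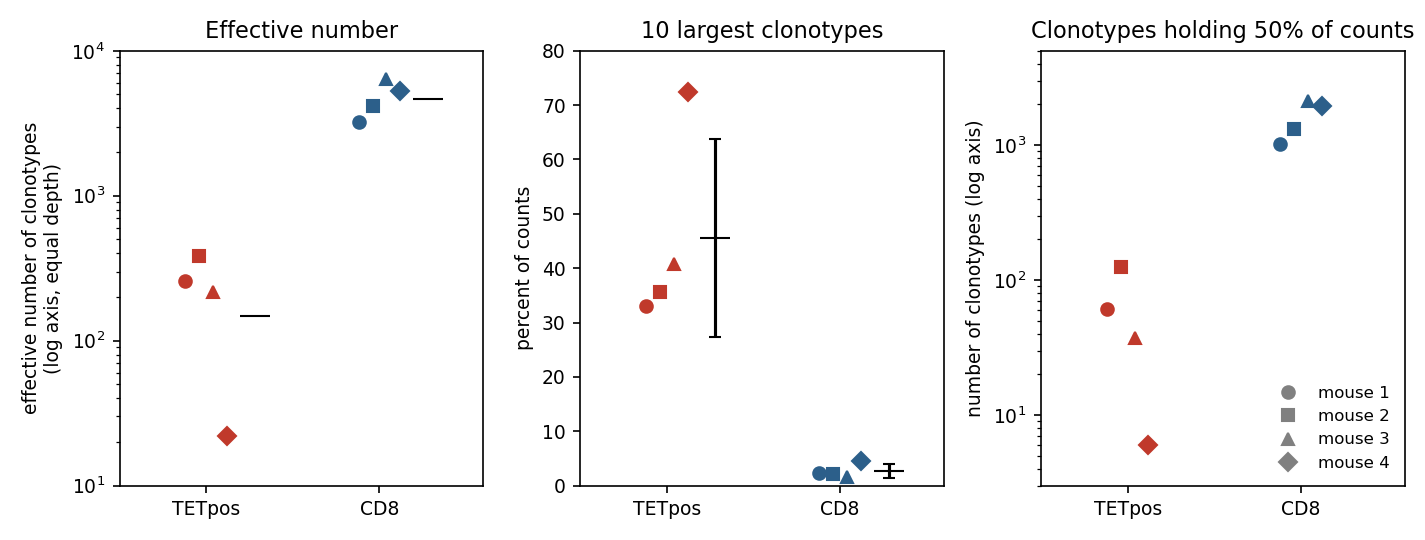
Effective number of clonotypes at equal depth (log axis), percent of counts in the 10 largest clonotypes, and the number of clonotypes that hold 50% of the counts (log axis), in TETpos (red) and CD8 (blue) libraries, with symbols for mice. Bars are the geometric mean (left) and the mean ± SD (middle, n = 4); TET 4 is the lowest point of the left panel at 21.8, and no TET point reaches a CD8 point in any panel.

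Of the 12 leading places, 3 in each TET library, 11 were held by TRBV13 clonotypes, and all were rare in the paired CD8 library. The largest of TET 1, the second of the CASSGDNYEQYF sequences printed above, had 1381 counts, 7.99% of the library (exact Clopper-Pearson 95% interval 7.59% to 8.40%). The largest of TET 2, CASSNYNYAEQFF, had 2416 counts, 10.8% of the library (10.4% to 11.2%). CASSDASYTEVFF led TET 3 with 2376 counts, 10.8% (10.4% to 11.2%). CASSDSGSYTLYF led TET 4 with 7893 counts, 13.1% (12.9% to 13.4%). None of the 12 reached 0.1% of the paired CD8 library, where the highest was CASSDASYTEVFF with 18 counts, 0.0729%.

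V family use differed between the fractions in most families tested. With each clonotype counted once, edgeR's quasi-likelihood test called 14 of 17 V families at an adjusted p under 0.05, 6 higher in TET and 8 lower (82.4% called). For every one of the 14, no TET library overlapped a CD8 library. The shares of a library have a fixed sum, so falls in some classes raise the shares of others, here and below. With TMM scaling the 6 rises were smaller but still called: TRBV31 1.67, TRBV20 1.63, TRBV1 0.67, TRBV2 0.50, TRBV5 0.46 and TRBV13 0.15 on the log2 scale. The part of the fixed sum in these rises was not tested.

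TRBV31 and TRBV20 rose most. TRBV31 made up 6.22%, 5.09%, 5.33% and 3.82% of clonotypes in TET 1 to TET 4 and 1.55%, 1.37%, 1.47% and 1.28% in CD8, a log2 fold change of 1.91 ± 0.12 (SE, edgeR adjusted p = 1.47e-11). TRBV20 made up 6.52%, 5.96%, 6.32% and 3.56% in TET and 1.73%, 1.54%, 1.66% and 1.63% in CD8 (log2 fold change 1.87 ± 0.11). Among the TET libraries, TET 4 had the lowest share of both families. TRBV1 was at 11.4% ± 0.288 (SD, n = 4) in TET and 6.10% ± 0.613 in CD8, a log2 fold change of 0.91. TRBV2 followed with 2.31% ± 0.347 against 1.30% ± 0.0937 (0.74) and TRBV5 with 8.53% ± 0.475 against 5.37% ± 0.312 (0.70). TRBV13, the largest family, whose 3 members the tables do not tell apart, held 44.8%, 45.5%, 45.6% and 46.8% of TET clonotypes and 34.1%, 35.1%, 34.2% and 34.7% of CD8 clonotypes, a log2 fold change of 0.40 ± 0.04 (edgeR adjusted p = 1.33e-08).

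TRBV12 was nearly absent from the tetramer-binding cells. It had 4 of 5220 TET clonotypes and 1982 of 30876 CD8 clonotypes, and its shares were 0.201%, 0.0455%, 0% and 0.254% in TET against 6.49%, 6.29%, 6.01% and 6.88% in CD8 (log2 fold change -6.34 ± 0.29, edgeR adjusted p = 1.40e-13). TRBV16 had 23 TET clonotypes and 2535 CD8 clonotypes, with shares of 0.602%, 0.455%, 0.429% and 0% in TET and 7.93%, 7.92%, 8.15% and 8.60% in CD8 (log2 fold change -4.21 ± 0.17). TRBV15 fell by 3.46 on the log2 scale, from 3.56% ± 0.298 (SD, n = 4) in CD8 to 0.334% ± 0.114 in TET. TRBV26, with 2 TET clonotypes, fell by 3.35, and TRBV3 fell by 2.18. TRBV17 fell by 1.45, TRBV14 by 1.07 and TRBV29 by 0.91. TRBV12 and TRBV26 passed the filter on clonotype numbers through CD8 alone, where they were high, and TRBV15 and TRBV16 would not have passed through TET alone. For these families the filter favoured a call as lower. TRBV4, TRBV19 and TRBV30 did not pass the test, with log2 fold changes of 0.03, 0.12 and 0.46. These directions are of clonotypes. Weighted by counts, 7 families were lower and none higher at an adjusted p under 0.05, and TRBV1, TRBV2 and TRBV5 had negative log2 fold changes of -0.86, -0.79 and -0.78 that did not pass. The 7 were all among the 8 families lower by clonotypes; TRBV3 was the one that did not pass by counts (log2 fold change -1.90).

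**Figure D2:**
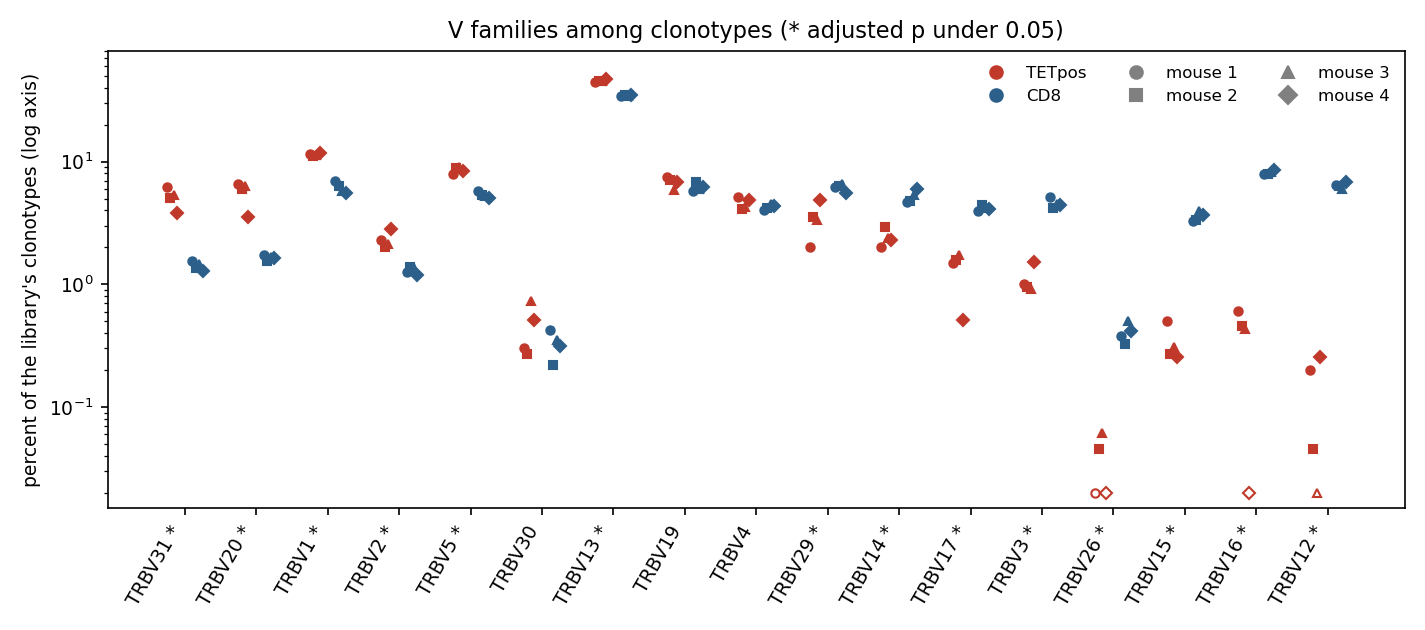
Percent of each library's clonotypes in the 17 tested V families (log axis), ordered by log2 fold change, for TETpos (red, left of each tick) and CD8 (blue, right) libraries, with symbols for mice. Open symbols at the foot of the axis are libraries with 0 clonotypes of the family; TRBV12, at 6.01% or more in every CD8 library, is at 0.254% or less in every TET library.

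J segments divided by cluster. All 6 TRBJ1 segments were higher in TET and 5 of 6 TRBJ2 segments lower, 11 of 12 called (91.7% called). Together the TRBJ1 segments were used by 44.1%, 44.8%, 43.3% and 35.4% of TET clonotypes and by 28.5%, 27.0%, 27.9% and 25.7% of CD8 clonotypes. The TRBJ1 rises ranged from a log2 fold change of 0.49 (TRBJ1-6) to 0.81 (TRBJ1-2, edgeR adjusted p = 1.78e-05), and between these lay TRBJ1-1 (0.61), TRBJ1-3 (0.68), TRBJ1-5 (0.73) and TRBJ1-4 (0.77). TRBJ1-4 was found in 11.3%, 9.07%, 9.67% and 10.03% of TET clonotypes and 6.23%, 5.54%, 6.15% and 5.19% of CD8 clonotypes, with no overlap. TRBJ2-1 fell by 0.54 on the log2 scale, from 13.95% ± 0.301 (SD, n = 4) in CD8 to 9.41% ± 0.678 in TET, and TRBJ2-7 fell by 0.49, from 22.6% ± 0.900 to 16.9% ± 2.66. TRBJ2-2 fell by 0.31, TRBJ2-4 by 0.31 and TRBJ2-5 by 0.25, while TRBJ2-3 had a log2 fold change of -0.04 and did not pass. For TRBJ2-4 the TET libraries disagreed, as TET 4 held 11.8%, above every CD8 library, and TET 1 to TET 3 held 8.90%, 6.92% and 7.95%. Weighted by counts, no J segment was called (0 of 12 at an unadjusted p under 0.05 as well). By counts TRBJ2-4 was at 16.97%, 6.64%, 5.44% and 56.6% in TET and between 9.60% and 10.6% in CD8. TET 1 and TET 4 thus lay above every CD8 library, TET 4 by far, and TET 2 and TET 3 below.

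**Figure D3:**
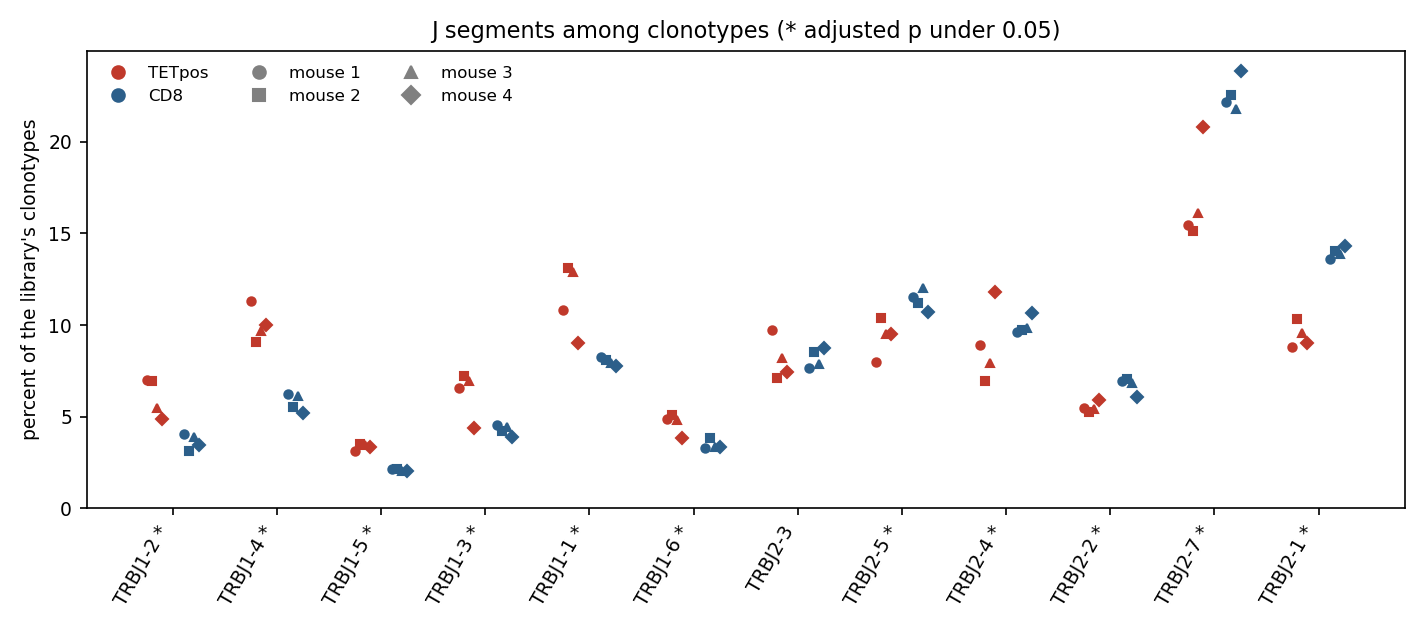
Percent of each library's clonotypes that used each of 12 J segments, ordered by log2 fold change, in TETpos (red, left of each tick) and CD8 (blue, right) libraries, with symbols for mice. The TRBJ1 segments stand to the left, with higher TET values, and the TRBJ2 segments to the right.

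Pairs of V family and J segment divide the same clonotypes further, so they are no separate support for the V and J patterns. Of 96 pairs tested, 31 were higher in TET and 40 lower (74.0% called). Among the 28 TRBJ1 pairs, 19 were higher and 4 lower, and among the 68 TRBJ2 pairs, 12 were higher and 36 lower. Of the 43 pairs of the 8 V families that were lower in TET, 38 were lower and none higher. Pairs absent from TET, such as TRBV12 with TRBJ2-7, entered through CD8 alone, so the filter on clonotype numbers favoured a call as lower. Of the 36 pairs of the 6 higher families, 27 were higher, among them all 15 TRBJ1 pairs and 12 of 21 TRBJ2 pairs. Some entered through TET alone, with at most 0.201% in any CD8 library. They were TRBV31 with TRBJ1-4 and TRBJ2-2, and TRBV20 with TRBJ1-1, TRBJ1-3 and TRBJ2-4. TRBV1 with TRBJ1-3 and TRBJ1-6 and TRBV5 with TRBJ1-4 would not have passed the filter through CD8 alone. The same holds for 2 called pairs of other families, TRBV4 with TRBJ1-1 and TRBV19 with TRBJ1-3. For all these pairs, the filter on clonotype numbers favoured a call as higher. The 15 TRBJ1 pairs of the 6 higher families thus include pairs that the filter favoured. Counted over the pairs of the 6 higher families, the TRBJ1 part held in the settings named here, with 15 of 15 by DESeq2, by TMM, with mouse as a block and without TET 4, 13 of 13 without single-count clonotypes and 12 of 12 without clonotypes found in more than 1 library. The TRBJ2 part did not: the 12 were 7 by DESeq2, 8 with mouse as a block, 6 with TMM, 6 of 19 without single-count clonotypes, 9 without TET 4 and 10 without clonotypes found in more than 1 library. Over all pairs, 64 of 93 were called without clonotypes found in more than 1 library. Within TRBV13, all 6 of its TRBJ1 pairs rose, from a log2 fold change of 0.68 with TRBJ1-6 to 1.18 with TRBJ1-2, while its TRBJ2 pairs gave no stable call. TRBV13 TRBJ2-2 (0.37) and TRBV13 TRBJ2-3 (0.33) passed narrowly, at edgeR adjusted p values of 0.0423 and 0.0446, and neither passed by DESeq2 (0.0867 and 0.0900) or with TMM (0.226 and 0.252). TRBV13 TRBJ2-2 was also lost without TET 4 (0.0530) and without clonotypes found in more than 1 library (0.131), and TRBV13 TRBJ2-3 with mouse as a block (0.129) and without single-count clonotypes (0.200). TRBV13 TRBJ2-7 had a log2 fold change of -0.19 and did not pass, but was called lower without TET 4 (-0.28, adjusted p = 0.0159) and with TMM (-0.32, adjusted p = 0.0279).

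Among the 96 pairs with enough clonotypes to be tested, the 6 with the highest log2 fold change were of TRBV31, TRBV20 or TRBV1. Of these 6, the pairs of TRBV31 and TRBV20 passed the filter on clonotype numbers through TET, where they were high. Pairs that did not pass it are not in this order. Examples are TRBV20 with TRBJ1-4, at a mean of 0.588% in TET and 0.0900% in CD8, and TRBV20 with TRBJ1-5, at 0.174% and 0.0218%. Both were named here after their values were seen. TRBV31 with TRBJ1-4 led, at 1.01%, 0.412%, 0.739% and 0.771% of TET clonotypes and 0.134%, 0.0591%, 0.165% and 0.0205% of CD8 clonotypes (log2 fold change 2.82 ± 0.37). TRBV20 with TRBJ1-1 followed at 2.44, TRBV20 with TRBJ2-4 at 1.97, TRBV31 with TRBJ2-2 at 1.88, TRBV20 with TRBJ1-3 at 1.65 and TRBV1 with TRBJ1-4 at 1.54, each with no overlap between fractions. The 6 lowest had no clonotype in any TET library, where 3 clonotypes over the 4 libraries would be 0.0575%. Against that floor, TRBV12 with TRBJ2-7 was at least 28.6-fold lower in TET than its CD8 mean of 1.65%. The bounds were at least 19.99-fold for TRBV12 with TRBJ2-1, 11.8-fold with TRBJ2-4, 7.94-fold with TRBJ2-2 and 7.45-fold with TRBJ2-3, and 8.11-fold for TRBV16 with TRBJ1-4.

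The large and the small TET clonotypes differed in the segments they used. Among the 10 largest of TET 1 to TET 4, 100%, 100%, 80% and 100% used TRBV13, against 50%, 60%, 30% and 90% in CD8. The 200 largest reached down to 2 counts in TET 4, which had 393 clonotypes in all, but to 18 to 21 counts in TET 1 to TET 3 and 9 to 15 in CD8. Over these 200 largest the TET values were 96.5%, 99.5%, 90.0% and 62.0% and the CD8 values 79.5%, 84.0%, 76.0% and 74.0%. That difference did not pass an exact permutation test (p = 0.371, adjusted p over 8 exact tests = 0.375), since TET 4 lay below every CD8 library; without TET 4, p was 0.0286, with a mean difference of 16.96 percentage points against 8.62 with it. Over the 100 largest, TET held 97%, 100%, 94% and 82% and CD8 78%, 86%, 69% and 69%, a mean difference of 17.75 points in which TET 4 lay below CD8 2 alone (exact permutation p = 0.0571). Beyond rank 200, TRBV13 made up 31.9%, 40.1%, 39.4% and 31.1% of TET clonotypes and 32.03% to 33.9% of CD8 clonotypes. There, TRBV1, TRBV5, TRBV20 and TRBV31 together made up 39.8%, 34.0%, 36.3% and 40.4% in TET and 13.6% to 16.3% in CD8, and TRBJ1 segments 45.4%, 44.3%, 43.1% and 40.9% against 25.7% to 28.6%. The ranks above 200 held 26.3%, 43.3%, 26.8% and 0.327% of TET counts, down to single counts, so in TET 4 these clonotypes carried almost none of the library. Without the 200 largest of each library, the edgeR fit called 15 of 17 V families, the same directions for the 14 and TRBV19 in addition (log2 fold change 0.28, adjusted p = 0.00719), and 11 J segments. On the 200 largest alone only 2 V families could be tested and neither was called, with TRBV1 at -0.95 and TRBV13 at 0.21 on the log2 scale, and 1 of 10 J segments was called, TRBJ1-4.

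TRBV13 clonotypes also had higher median counts than those of other families in every library but CD8 3, where the medians were equal. Their median count was 14, 9, 4 and 4 in TET 1 to TET 4 against 5, 2, 2 and 1 for all other families, and 6, 5, 2 and 3 against 3, 2, 2 and 2 in CD8. The part of this general difference in the TRBV13 share of large TET clonotypes was not tested. In TET 2 no clonotype of another family exceeded 20 counts, whereas TET 3 and TET 4 had clonotypes of other families at 962 and 1272 counts. By counts, TRBV13 held 79.6%, 80.6%, 77.4% and 95.6% of TET libraries and 47.9%, 50.7%, 43.7% and 47.3% of CD8 libraries, with no overlap; the log2 fold change of 0.81 did not pass the count-weighted fit (edgeR adjusted p = 0.126).

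**Figure D4:**
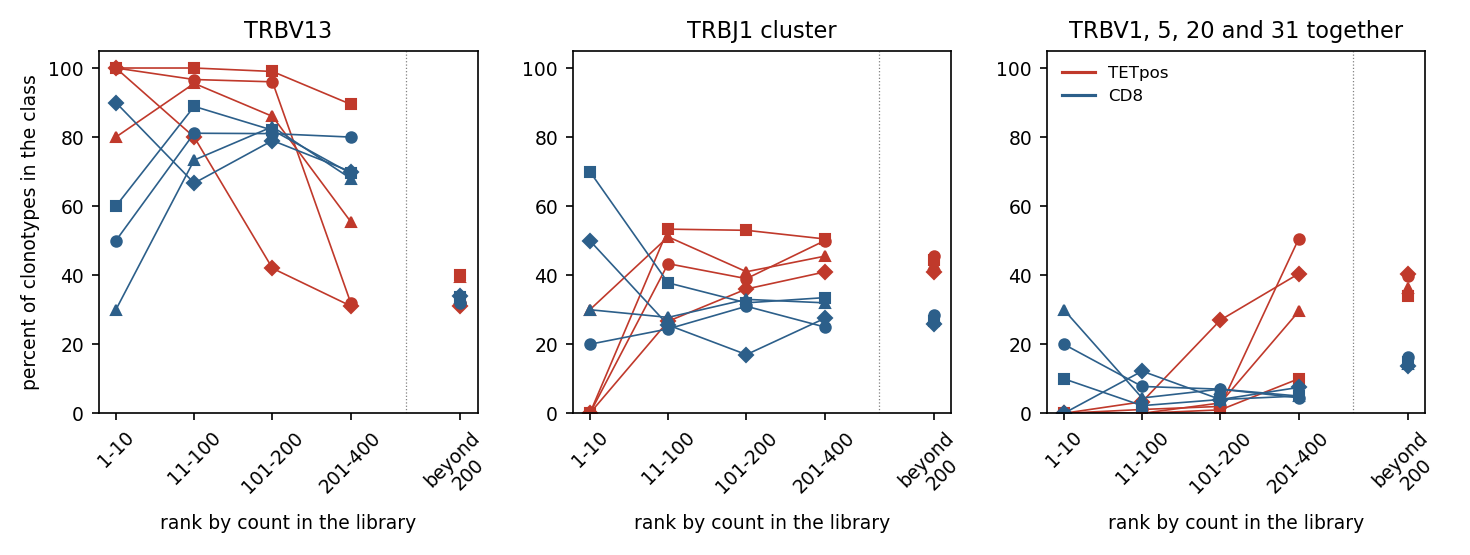
Percent of the clonotypes in each rank class, by count within the library, that used TRBV13 (left), any TRBJ1 segment (middle) or 1 of TRBV1, TRBV5, TRBV20 and TRBV31 (right); red lines are TETpos and blue lines CD8 libraries, with circles, squares, triangles and diamonds for mice 1 to 4. To the right of the dotted line stands each library beyond rank 200, where TRBJ1 lies at 40.9% or more in TET and at 28.6% or less in CD8.

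Mean CDR3 length, in residues, passed the exact test when weighted by counts and not by clonotypes. The mean over clonotypes was 13.9 ± 0.0796 (SD, n = 4) in TET and 13.9 ± 0.0224 in CD8, a difference of -0.05 (exact permutation p = 0.343; adjusted p = 0.375). None of 9 length classes was called by edgeR (0% called), with 3 at an unadjusted p under 0.05, and DESeq2 called 0; without CD8 3, 1 length class was called higher. Weighted by counts, the means were 13.3, 13.3, 13.5 and 12.4 in TET and 13.8 in each CD8 library, with no overlap (exact permutation p = 0.0286). The 10 largest TET clonotypes had mean lengths of 12.3, 12.5, 13.2 and 12.2 residues, against 13.9, 13.3, 14.1 and 13.9 in CD8.

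The junctions of TET clonotypes were shorter between the segments. Fewer bases lay between the V and the J match, on average 9.19, 9.18, 9.17 and 8.87 in TET 1 to TET 4 and 9.85, 9.76, 9.799 and 9.67 in CD8 1 to CD8 4. Each TET library lay below each CD8 library (difference -0.67, exact permutation p = 0.0286, adjusted p = 0.0457; sign-flip p = 0.125). With clonotypes found in more than 1 of the 15 libraries left out, the difference was -0.49 with no overlap, and among TRBV13 clonotypes alone it was -0.57. Weighted by counts, TET had 8.09, 7.62, 8.79 and 5.10 bases and CD8 9.72, 9.58, 9.69 and 9.70. The clonotypes that TET libraries shared with one another had 8.53, 8.84, 8.70 and 8.69 bases, against 9.30, 9.23, 9.24 and 8.90 in those found in no other mutant TET library. In CD8 the same contrast was wider, with 6.76 to 7.42 bases in shared and 9.74 to 9.91 in unshared clonotypes. The sequences printed above show the short end: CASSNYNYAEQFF and the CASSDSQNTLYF sequences have no base between the V and J matches.

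**Figure D5:**
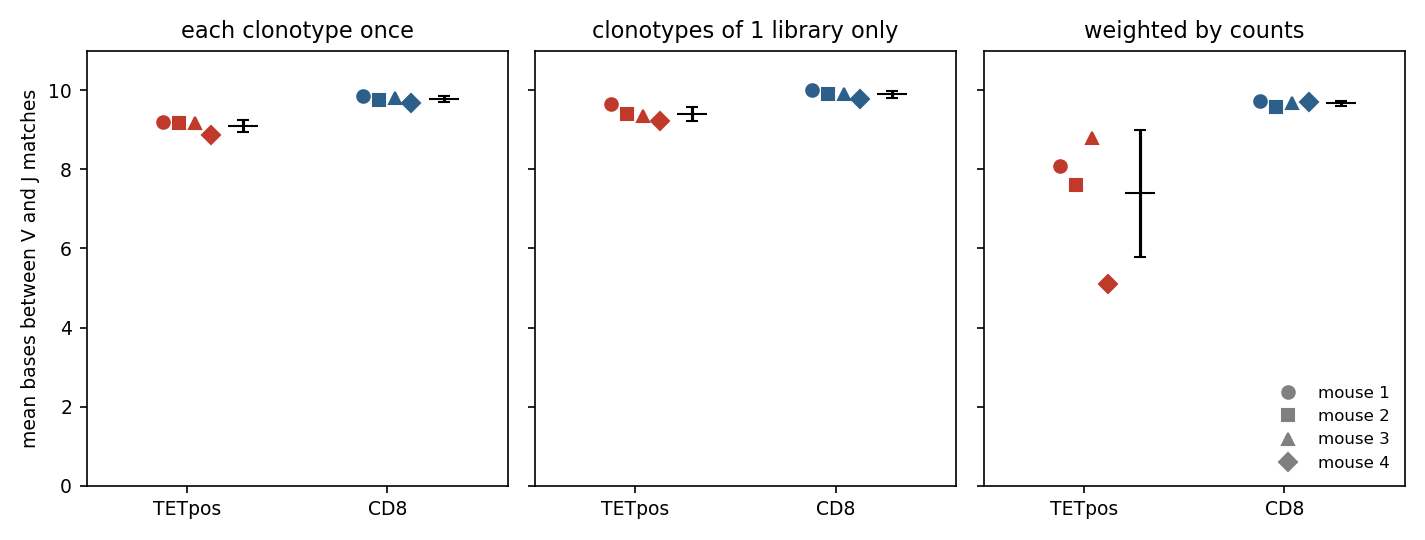
Mean number of bases between the V and the J match per library with each clonotype counted once (left), for clonotypes found in 1 of the 15 libraries only (middle) and weighted by counts (right), in TETpos (red) and CD8 (blue), with symbols for mice and the mean ± SD (n = 4). TET 4 is the lowest in each panel, at 5.10 bases by counts.

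Within TRBV13, residues at CDR3 positions 4 to 8, counted from 1 at the first cysteine, were compared by their share of TRBV13 clonotypes. Of 66 tested, 9 were higher in TET and 5 lower (21.2% called). Histidine at position 5 (H5) had the highest log2 fold change, 1.62 ± 0.59, at 1.12%, 0.999%, 0.806% and 2.17% in TET and 0.195%, 0.419%, 0.270% and 0.411% in CD8, from 25 and 36 clonotypes. H5 passed the filter on clonotype numbers through TET alone, where it was high, so the filter favoured its place and its call. Arginine at 5 (R5) followed at 0.78, with 5.02% ± 1.11 (SD, n = 4) in TET and 2.94% ± 0.177 in CD8, then glutamine at 6 (Q6) at 0.70, asparagine at 7 (N7) at 0.50 and proline at 6 (P6) at 0.40. The lower residues were leucine, tryptophan and, at position 4, glycine. Leucine at 6 (L6) fell by 0.67, leucine at 7 (L7) by 0.67, tryptophan at 6 (W6) by 0.66 and tryptophan at 7 (W7) by 0.50. Glycine at 4 (G4) fell by 0.35, from 37.0% ± 0.615 to 27.7% ± 5.02. Serine at the same position (S4), named here after its values were seen, rose by 0.18, from 52.3% ± 0.473 to 60.6% ± 4.33. S4 was called (edgeR adjusted p = 0.00101) but lost without clonotypes found in more than 1 library (0.216). The TRBV13 members are not told apart, so the part of member choice in G4 and S4 was not tested. Of the named residues, P6 was lost without TET 4 (adjusted p = 0.0706) and by DESeq2 (0.177), and W7 with mouse as a block (0.0643), by DESeq2 (0.177) and without clonotypes found in more than 1 library (0.111). L6 was lost in that last setting (0.0528), and H5 was too rare to be tested there. The count of called residues was 9 without CD8 2, 8 without CD8 3, 7 without TET 2, 9 by DESeq2 and 8 without clonotypes found in more than 1 library.

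The TET libraries had receptors in common. A receptor is a V family, J segment and amino-acid CDR3. Of 4709 in the mutant TET libraries, 33 were present in 3 or more libraries, 19 of them TRBV13, and 5 in all 4, each TRBV13. The 33, chosen for their presence in TET, held 25.0%, 26.3%, 32.7% and 24.0% of TET counts and 0.139%, 0.214%, 0.202% and 0.107% of CD8 counts.

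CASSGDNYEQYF with TRBJ2-7 was the most abundant of them, at 11.5%, 7.92%, 0.605% and 7.49% of the counts of TET 1 to TET 4, and had 0, 12, 0 and 21 counts in CD8 1 to CD8 4. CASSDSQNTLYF with TRBJ2-4 was at 5.49% and 12.99% in TET 1 and TET 4 and at 7 counts in TET 2 and in TET 3, and it was present in all 4 CD8 libraries at 4 to 21 counts. Its TET counts came from 4 nucleotide sequences, the most frequent of which, with 5510 counts, was found in TET 4 alone. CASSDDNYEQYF with TRBJ2-7 was spread most evenly, at 4.07%, 0.575%, 3.54% and 2.97%. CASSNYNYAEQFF with TRBJ2-1 and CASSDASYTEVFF with TRBJ1-1 were each large in 1 library and small in the other 3: 20, 2416, 85 and 34 counts for the first and 10, 12, 2376 and 85 for the second. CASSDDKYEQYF was at 2.01%, 0%, 9.13% and 0.223%, and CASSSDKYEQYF had 12, 1351, 55 and 0 counts. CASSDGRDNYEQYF and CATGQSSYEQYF, both with TRBJ2-7, were large only in TET 3, at 819 and 807 counts. A receptor of 15 residues with TRBV29 and TRBJ1-3 had 93, 0, 11 and 12 counts.

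No receptor passed the test between fractions. edgeR called 0 of 217 receptors present in enough libraries (0% called), with 107 at an unadjusted p under 0.05. For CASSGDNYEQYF the fitted log2 fold change was 8.01 ± 3.51 (edgeR adjusted p = 0.0689). With mouse as a block, 2 receptors were called higher, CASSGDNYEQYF (adjusted p = 0.00830) and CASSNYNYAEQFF (adjusted p = 0.0147), and DESeq2 called 4 higher and gave no adjusted p for 19. Receptors were tested if present in at least 3 of the 8 libraries. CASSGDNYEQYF was in 4 TET and 2 CD8 libraries and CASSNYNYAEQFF in 4 TET and 0 CD8 libraries. Both thus entered the test through TET, where they were high, so the filter favoured their calls as higher. The count was unstable: without CD8 1, 25 receptors were called and all were lower in TET, without CD8 2, 9 were, and with TMM scaling 3 were higher and 79 lower.

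More TET clonotypes had a near neighbour, another receptor of the same V family and length with 1 different residue. In equal samples of 393 clonotypes, the share of receptors with a neighbour was 6.23%, 3.92%, 3.71% and 21.4% in TET and 2.54%, 2.71%, 2.44% and 2.61% in CD8 (exact permutation p = 0.0286, adjusted p = 0.0457). Among TRBV13 clonotypes alone, in samples of 184, the TET values were 7.23%, 5.33%, 5.38% and 26.6% and the CD8 values 5.80%, 5.75%, 4.88% and 5.61%, so TET 2 and TET 3 lay within the CD8 range (exact permutation p = 0.286). Over all families, the mean difference was 6.24 percentage points with TET 4 and 2.05 without it, and leaving out any 1 CD8 library gave an exact permutation p of 0.171. Nucleotide sequences per receptor, at 393 clonotypes, were 1.0072, 1.0033, 1.0044 and 1.0261 in TET and 1.0018 to 1.0024 in CD8 (exact permutation p = 0.0286), a mean difference of 0.00823 that was 0.00295 without TET 4. With the 393 largest clonotypes of each library in place of random ones, these values overlapped (exact permutation p = 0.8).

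Few TET clonotypes recurred among the CD8 cells of their own mouse: 28, 44, 22 and 17 of TET 1 to TET 4, or 2.81%, 2.00%, 1.35% and 4.33%. They held 6.55%, 8.73%, 27.2% and 41.8% of TET counts, or 6.41%, 8.02%, 26.8% and 19.8% without clonotypes that had a single count in the CD8 library. The mean over the CD8 libraries of the other 3 mutant mice was 13.3%, 4.31%, 4.23% and 6.17%. The own library was higher in 3 of 4 mice, by a mean of 14.1 percentage points, but not in mouse 1, and the exact sign-flip p was 0.375. The mean was 8.63 points without mouse 4 and 8.69 without those single-count clonotypes. By share of clonotypes, the mean over the other mice was 2.07%, 1.61%, 2.21% and 2.46%. The exception was then mouse 3, and the mean difference was 0.53 points (exact sign-flip p = 0.5). Without clonotypes that another library held at 10 times the count or more, which includes clonotypes much larger in TET than in CD8, own and other shares of counts were 1.24% ± 0.618 and 0.684% ± 0.445 (SD, n = 4). In that setting too the exception was mouse 3, at 0.490% against 1.03%.

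Whether the V family difference between fractions itself differed from that in WT mice was tested with 3 WT TET libraries of 97 to 126 clonotypes. None of 15 families passed (0% called), with 3 at an unadjusted p under 0.05, and DESeq2 called 0. TRBV13 was at 54.9%, 65.9% and 54.6% of WT TET clonotypes and at 34.3% to 37.6% of WT CD8 clonotypes, and the mutant effect minus the WT effect was -0.32 ± 0.11 on the log2 scale (edgeR adjusted p = 0.0719), and 0.09 when weighted by counts (adjusted p = 0.926). For TRBV31, at 2.94%, 2.38% and 1.03% in WT TET and 1.24% to 1.84% in WT CD8, it was 1.46 ± 0.50 (edgeR adjusted p = 0.0719). No WT TET library held a TRBV12 clonotype. Without WT TET 3, 1 family was called.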

How the data were processed

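Per the labels' protocols, total RNA was copied with a TCRβ constant region primer, template switching added 9-nt molecular identifiers, and nested PCR products were sequenced on a MiSeq. For each library, the authors deposited the count of every nucleotide CDR3 and its fraction of a larger total, of which the mutant tables hold 95.8% to 99.2%. The sources used here name no aligner, caller or build. Shares were recomputed from counts; 1 alpha-chain entry was left out.

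J segments were assigned from the deposited J length (51.2% by length alone) and the CDR3 end; 0.593% stayed unassigned. Clonotype numbers per class were tested with edgeR 4.0.16 (quasi-likelihood, minimum count 10, library size without TMM, no dispersion trend under 50 classes) and Benjamini-Hochberg adjustment; R was 4.3.3, DESeq2 1.42.0 and scipy 1.17.1. Scripts were tested on simulated data. Thinning used 200 draws. Single values were compared by exact tests, the junction bases and the TRBV13 share of large clonotypes among them being added after the data were seen. Named were all tested V families and J segments, the 6 highest and 6 lowest called pairs, the 5 highest and 5 lowest called residues, the 10 most abundant receptors of 3 or more TET libraries and the 3 largest clonotypes of each.

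The libraries compared and all lists were chosen with earlier results of these data known. Pairing by mouse rests on the numbers in the labels: over 17 V families, the deviations from the fraction means of mice 1 to 4 had correlations of -0.26, 0.27, 0.45 and -0.19 between TET and CD8, across families, which are not independent.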

Additional observations from a re-analysis of the deposited data

Results flagged for a closer look

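Of 72 groups of 4 libraries checked, 4 held 1 library far from the other 3 by Dixon's criterion, where chance gives about 1 in 20. TET 4 had 21.4% of receptors with a CDR3 neighbour, against 3.71% to 6.23% in the other 3 TET libraries. TET 4 also had the fewest bases between the V and J matches, 8.87 against 9.17 to 9.19. TRBV3 made up 1.53% of TET 4 clonotypes and 0.920% to 1.00% in the other 3. Among CD8 libraries, TRBJ1-6 was used by 3.81% of the clonotypes of CD8 2 and by 3.30% to 3.36% in the others.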

How the results depend on the processing

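Directions and calls held under most settings, but weighting by counts changed the segments: 7 V families and 0 J segments were then called, with TRBV1 at -0.86, TRBV2 at -0.79, TRBV5 at -0.78, TRBJ1-2 at -0.023, TRBJ1-3 at -0.21, TRBJ1-4 at -0.020, TRBJ1-5 at -0.16, TRBJ1-6 at -0.75, TRBJ2-4 at 1.06 and TRBJ2-7 at 0.47 (log2 fold changes against the direction by clonotypes). On the 200 largest clonotypes, 0 V families and 1 J segment were called, from fewer classes tested, with TRBV1 at -0.95 and TRBJ2-4 at 0.022. TMM factors moved the V families by a median of -0.24 on the log2 scale and gave TRBV4 -0.21 (edgeR adjusted p = 0.0351) and 82 called receptors. Without a filter on low counts, 108 of 230 V-J pairs were called. Leaving out single-count clonotypes called 2 length classes. Residue calls numbered 9 with DESeq2 and 8 without clonotypes found in more than 1 library; this setting and those by size rank were chosen after seeing the data. Receptor calls numbered 2 with the replicate block, 4 with DESeq2 and 2 without clonotypes that were at least 10 times as frequent, by count, in a different library.

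With the libraries paired by number, the exact sign-flip test cannot go below p = 0.125, so effective number (-4.98), the 10 largest (42.8), sequences per receptor (0.00823), neighbours (6.24) and junction bases (-0.67) kept their values and missed 0.05; in the edgeR fits the pairing block changed no count by over 1.5 times other than that of receptors. Mean CDR3 length differed by -0.71 by counts and by 0.045 in TRBV13 alone. Sequences per receptor differed by 0.0033 among the 393 largest clonotypes, neighbours by 5.61 in TRBV13 alone, and the TRBV13 share of the 200 largest by 16.96 without TET 4.

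Leaving out each library in turn gave 13 to 14 V families, 10 to 11 J segments, 59 to 92 V-J pairs, 0 to 1 length classes, 7 to 16 residues, 0 to 25 receptors and 0 to 1 families in the WT comparison. The differences ranged from -5.44 to -4.06 (log2 effective number), 33.9 to 47.0 (10 largest), -0.06 to -0.01 (length), 0.00295 to 0.0105 (sequences per receptor), 2.05 to 7.95 (neighbours), -0.70 to -0.59 (junction bases), 4.46 to 16.96 (TRBV13 share) and 8.63 to 19.7 (own CD8 overlap). The smallest differences in effective number, 10 largest, sequences per receptor and neighbours came without TET 4. The causes of these changes were not tested. The 97 to 126 clonotypes of each WT TET library limit the comparison with WT.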
